A study of Saccharomyces cerevisiae with 268 samples.

Results

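Early meiosis genes are 9 genes of budding yeast, Saccharomyces cerevisiae, that act when a diploid cell leaves the mitotic cycle and begins meiosis. They were chosen by name from what is known of their roles, and with earlier results of these data known. The members are HOP1 (YIL072W), RIM4 (YHL024W), SPO13 (YHR014W), IME2 (YJL106W), SPO11 (YHL022C), DMC1 (YER179W), REC104 (YHR157W), ZIP1 (YDR285W) and RED1 (YLR263W). All 9 were found among the 5615 genes tested. The study profiled RNA in strains labelled as single-gene deletions of transcription factors and related regulators. Each 2-channel array set total RNA of 1 deletion strain (Cy5) against wild type RNA (Cy3), both from mid-log cultures, and each deletion has 1 column with no replicate. The labels used here name no strain background, ploidy, mating type or medium. No group was under sporulation conditions per the labels, so the genes were read here in dividing cells.

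Each value is a score that sets the deletion strain against wild type, with positive scores where the deletion strain had more RNA. No source used here states the log base or how the scores were scaled, so differences are given in score units and not as folds. A centred score is a score minus the gene's own median over all columns, and a gene was counted as high or low in 1 column when its centred score was above 1 or below -1. Such a count from 1 column carries no test. In these bulk cultures, fewer cells expressing a gene and less RNA per cell cannot be told apart.

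In dividing yeast cells the early meiotic genes are held silent. Ume6, a zinc cluster protein, binds a short upstream repression site in their promoters and recruits the histone deacetylase complex Rpd3L, which contains Sin3, Rpd3, Sds3, Ume1 and Pho23, and also the nucleosome remodeller Isw2. On starvation of diploid cells the activator Ime1 joins Ume6 and turns these genes on, and Ndt80 later switches on the middle sporulation genes. Of the members, IME2 encodes a protein kinase that drives meiotic progression and RIM4 an RNA-binding protein that controls translation in meiosis. SPO11 and REC104 act in making the DNA breaks that start recombination, and DMC1 is the meiotic strand exchange protein. HOP1 and RED1 build the chromosome axis, ZIP1 builds the synaptonemal complex that joins homologues, and SPO13 sets how sister chromatids behave in the first division.

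Across the columns most scores of the members lay near 0. Their medians over columns lay between -0.16 for RED1 and 0.42 for ZIP1. The SD over columns was lowest for ZIP1, at 0.53, and highest for SPO13, at 0.89. The SPO13 scores include -6.56 in the CAC2 column, with the next lowest at -2.57. The median of the 9 SDs was 0.645, against 0.718 over all genes tested. At least 1 member was high in 96 columns and at least 1 was low in 84. At least 4 members were high together in 5 columns, and at least 4 were low together in 3. All 9 members passed the requirement of a value in at least 80% of columns, with SPO11 lacking a value in 25 columns and SPO13 in 12.

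**Figure D1:**
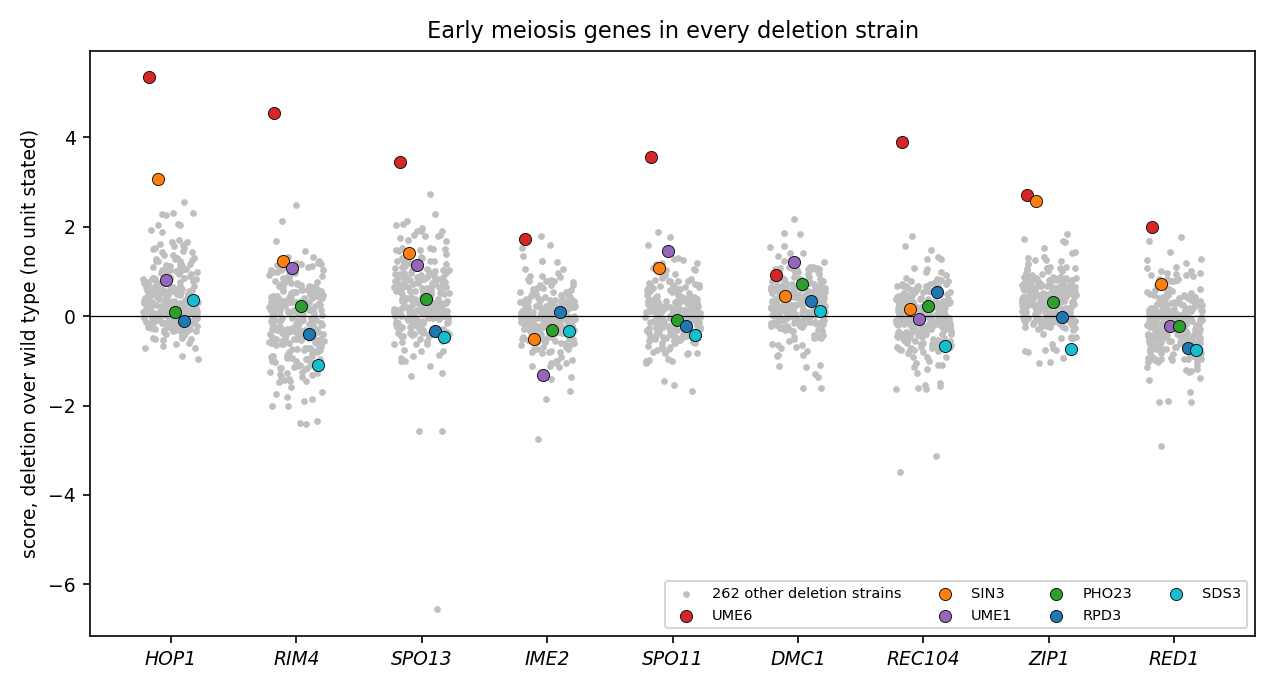
Scores (deletion over wild type, no unit stated, vertical axis) of the 9 early meiosis genes (horizontal axis) in each deletion strain, 1 point per column. Coloured points are the 6 strains lacking Ume6 or an Rpd3L subunit and grey points are all other strains. UME6 is the highest point for 7 of the 9 genes, and SIN3 comes next to it for HOP1 and ZIP1.

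The UME6 column gave the highest scores for most members. Its own gene stood at -6.45 in its column, against a median of -1.24 in the other columns, the lowest value of that gene. HOP1 stood at 5.35, RIM4 at 4.56, REC104 at 3.90, SPO11 at 3.57, SPO13 at 3.44, ZIP1 at 2.71, RED1 at 2.0, IME2 at 1.72 and DMC1 at 0.91. The 9 genes thus ranged from far above every other strain to well inside their spread. The median centred score of the 9 was 3.14, against -0.024 over all genes in this column, and 8 of 9 were high, where 11.9% of all genes were.

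The UME6 column held the highest score of all columns for 7 of the 9 members, and it did so for 2.5% of all genes. The gap to the next strain differed between members. For RIM4 the next strain, SPT10, stood at 2.48, and for REC104 the next, SIR3, at 1.80. For ZIP1 the next, SIN3, stood at 2.57, close to the 2.71 of UME6. IME2 ranked 2 in the UME6 column, just below HAT2 at 1.80, and DMC1 ranked 31. With quantile normalization between columns, UME6 was highest for 4 of the 9, and 8 of 9 still had a centred score above 1.

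HOP1 lies on chromosome IX, and in the UME6 column the genes of chromosome IX had a median centred score of 2.29, against -0.046 for all others. HOP1 had a centred score of 5.02, which is 2.73 above that chromosome's median, and 4 other chromosome IX genes stood higher. With chromosome shifts removed, the list median in this column was 2.70 and UME6 was highest for 6 of the 9 members. HOP1 was then no longer among these, with a centred score of 2.70 in UME6 and 2.75 in SIN3. None of the other 8 members lies on chromosome IX.

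**Figure D2:**
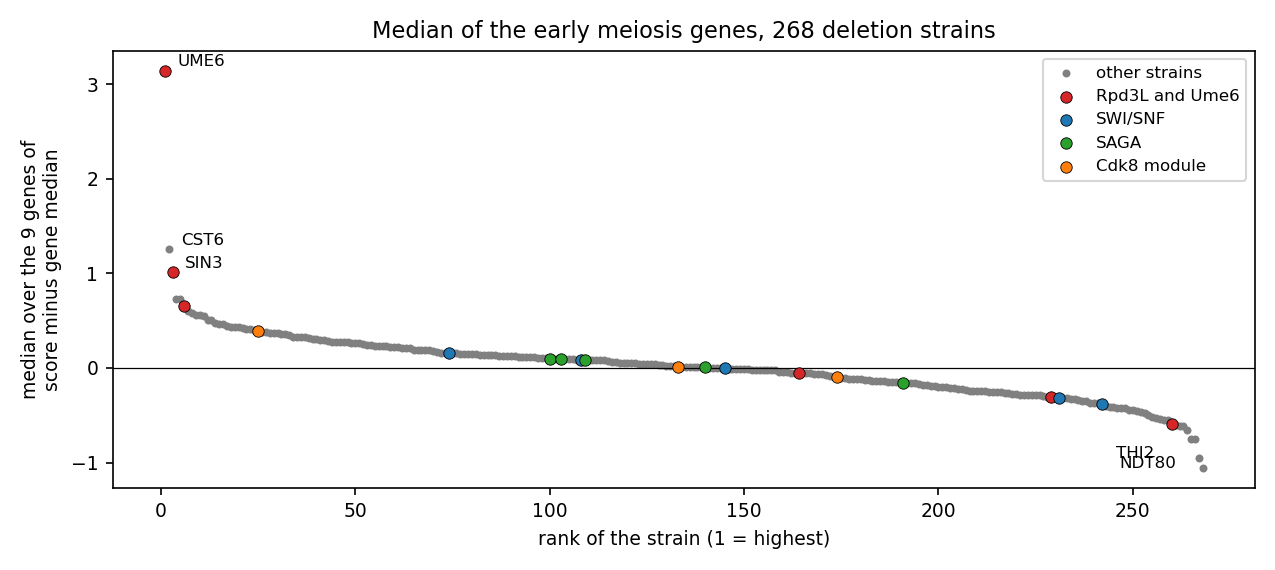
Median centred score of the 9 early meiosis genes (vertical axis) in each deletion strain, ordered from highest to lowest (horizontal axis, rank), with 4 strain sets coloured. UME6 stands at 3.14 and the next strain, CST6, at 1.26, while NDT80 is lowest at -1.06.

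The strain lacking SIN3, the scaffold of the deacetylase complex, showed part of the same pattern. Its own gene stood at -5.17, against a median of -0.40. HOP1 stood at 3.08, ZIP1 at 2.57, SPO13 at 1.41, RIM4 at 1.24 and SPO11 at 1.08. In contrast REC104 stood at 0.15, DMC1 at 0.45, RED1 at 0.71 and IME2 at -0.51. In this column 5 of 9 members were high, against 16% of all genes, and 2 were with quantile normalization. REC104, at 3.90 without UME6, was the member for which these 2 strains differed most. Chromosome V, which holds DMC1, was shifted by 1.04 in the SIN3 column.

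The strain lacking UME1, which encodes another subunit, had its own gene at -4.30. SPO11 stood at 1.46, DMC1 at 1.22, SPO13 at 1.14, RIM4 at 1.08 and HOP1 at 0.81, while IME2 was at -1.32 and ZIP1 had no value. Of 8 members with a value, 2 were high, RIM4 and SPO11, against 4.59% of all genes, and 4 were with quantile normalization. The other 3 strains did not share the pattern. PHO23 had scores between -0.32 and 0.72, SDS3 between -1.10 and 0.37, and the column labelled RPD3 between -0.72 and 0.54. RPD3 itself stood at -0.017 in its column against a median of -0.67, so that column does not show the loss of its gene. SDS3, at -2.41, and PHO23, at -0.89, lay among the lowest 1.49% and 9.33% of their values.

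Taken as 1 set of 6 strains and compared with the deletions outside all 4 sets, 1 of the 9 members differed. HOP1 averaged 1.60 ± 2.17 (SD, n = 6) against 0.42 ± 0.62 (SD) in the other deletions, a difference of 1.18 ± 0.29 (SE; limma, adjusted p = 0.0109). No member was lower. Over all genes 0.659% were called higher and 0.0178% lower. The 6 HOP1 scores ran from -0.11 in RPD3 to 5.35 in UME6, so they overlapped the other deletions, whose range was -0.97 to 2.32. Without UME6 the HOP1 difference was 0.43 (adjusted p = 0.861) and without SIN3 0.88 (adjusted p = 0.328), both by limma. With every column left out in which a chromosome was shifted, UME6 and SIN3 among them, it was -0.13 (limma, adjusted p = 0.999). With chromosome shifts removed and all columns kept, the HOP1 difference was 0.79 (limma, adjusted p = 0.215). With quantile normalization it was 0.55 (limma, adjusted p = 0.851).

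SPO11 differed by 0.83 ± 0.25 (limma, adjusted p = 0.0909), RIM4 by 1.04 ± 0.35 (adjusted p = 0.166) and REC104 by 0.72 ± 0.28 (adjusted p = 0.291). ZIP1 differed by 0.59, SPO13 by 0.61, DMC1 by 0.32, RED1 by 0.25 and IME2 by -0.051, and none of these passed. At an unadjusted p below 0.05 there were 5 of 9 members, against 8.76% of all genes. The median difference of the 9 was 0.61, against 0.022 over all genes. These tests use 1 pooled spread per gene, to which the many deletions outside the sets contribute most, so the wide spread within the set enters little. Without SDS3, 4 members passed, HOP1, RIM4, SPO11 and ZIP1. In contrast none passed without UME6, and none without SIN3. For REC104 the 5 strains other than UME6 lay between -0.67 and 0.54.

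Genes of the a mating type moved in some of the same columns. Below -2 were 5 of the 6 a-cell genes STE2, MFA1, MFA2, BAR1, AGA2 and STE6 in SIN3 and in SDS3 and 3 in UME1, and none in UME6, PHO23 or RPD3. In the column labelled RPD3, 2 of the 3 alpha-cell genes were below -2. With columns of this kind left out, UME6 and PHO23 remained of the set, and HOP1 (2.27 ± 0.47), RIM4 (2.47 ± 0.59), SPO11 (1.68 ± 0.42) and REC104 (2.13 ± 0.49) then passed, with limma adjusted p of at most 0.0121. These 4 genes stood between -0.082 and 0.24 in PHO23, so the high values are those of the UME6 column alone. What part mating type genes have in the SIN3 and UME1 values was not tested.

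**Figure D3:**
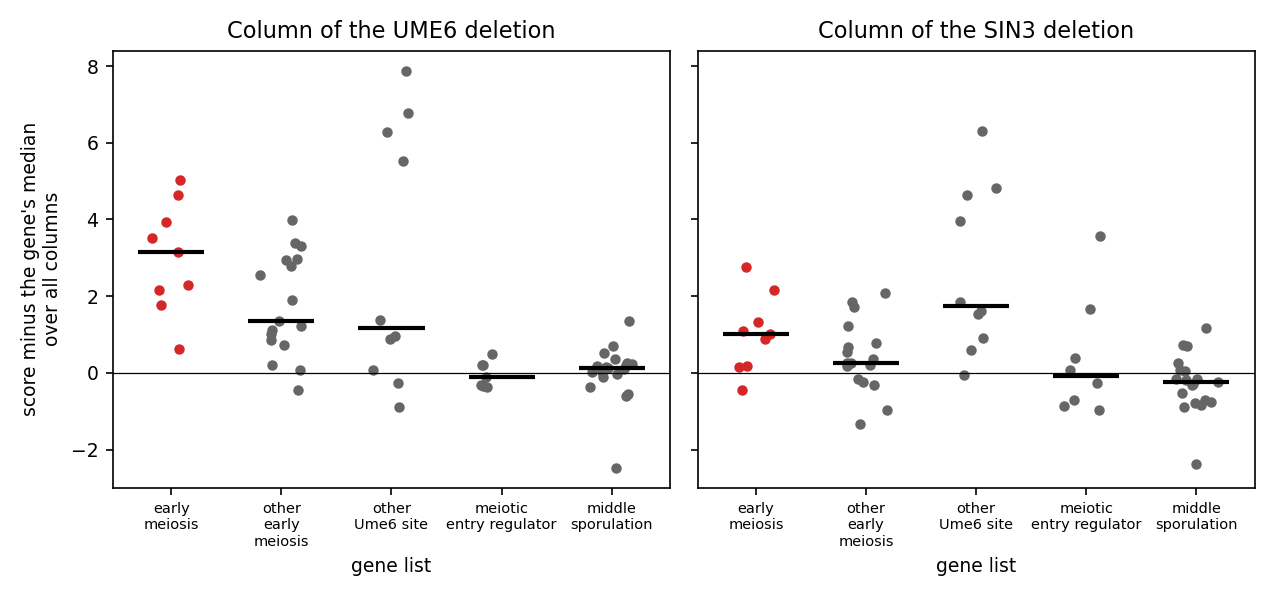
Centred scores (score minus the gene's median over columns, vertical axis) by gene list (horizontal axis) in the UME6 column (left) and the SIN3 column (right), 1 point per gene with the list median as a bar. In the UME6 column the 9 early meiosis genes have a median of 3.14 and the middle sporulation genes of 0.12.

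Other early meiosis genes, which are not members, were high in the UME6 column too. Of 17 with a value, 12 were high and none low, with a median centred score of 1.36. Of all genes, 11.9% were high and 6.6% low in that column. The highest centred scores were those of MEK1, a kinase that favours recombination between homologues (3.99), PCH2, an ATPase that remodels Hop1 (3.40), REC114, for DNA break formation (3.30), and SPO16, a synapsis gene (2.96). In the set of 6 strains, SPO16 was higher by 1.02 ± 0.24 (limma, adjusted p = 0.00805) and PCH2 by 1.07 ± 0.29 (adjusted p = 0.0347). The other 15 did not pass, and of all genes 0.659% were called higher. Within the set the SD was 1.28 for SPO16 and 1.31 for PCH2.

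Other genes with a known Ume6 site, most of them genes of metabolism, were high in part. INO1, for inositol synthesis, stood at 7.92 without UME6, ACS1, an acetyl-CoA synthetase gene, at 6.31, CAR2 and CAR1, for arginine breakdown, at 5.41 and 4.82. Of 10 such genes 5 were high without UME6 and 7 without SIN3, and 3 rose in the set of 6 strains (limma), INO1, ACS1 and CAR1. CHO1, for phosphatidylserine synthesis, stood at 4.49 without SIN3 and at -0.59 without UME6, and it lies on the shifted chromosome V of the SIN3 column.

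Genes of regulators of meiotic entry did not follow the members. Without UME6 none of 7 was high or low, where 11.9% of all genes were high and 6.6% low. The largest centred scores were 0.49 for IME1, -0.37 for RIM101, -0.34 for RIM11 and -0.30 for IME4. UME6 itself had a centred score of 3.56 in the SIN3 column. Middle sporulation genes had a median centred score of 0.12 in the UME6 column and -0.25 in the SIN3 column. Of 19 in the UME6 column, DON1 was high (1.70 as a score) and GAS2 low (-3.26). No gene of either list passed in the set of 6 strains (limma, adjusted p of at least 0.108).

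The strains that follow UME6 in the list median were CST6 (1.26), SIN3 (1.01), TUP1 (0.73) and AFT1 (0.73). In the column labelled CST6, SPO13 stood at 2.73, HOP1 at 2.32, DMC1 at 1.86 and IME2 at -1.35, and 6 members were high, where 25.3% of all genes were. CST6 itself was at -0.44 there, against a median of -0.17, and TUP1 was at -4.16. TUP1 encodes a general corepressor, and its own column had ZIP1 at 1.83, SPO13 at 1.81, DMC1 at 1.55 and IME2 at 1.22, with 4 members high against 19.9% of all genes. Of the a-cell genes, 4 were below -2 in each of both columns. With quantile normalization the list medians of CST6 and TUP1 dropped to 0.41 and 0.20, at ranks 31 and 83. The strain lacking AFT1, the activator of iron uptake genes, had HOP1 at 2.04, SPO13 at 1.97, ZIP1 at 1.42 and RED1 at 0.91. These were the 4 members high there, against 7.0% of all genes, and DMC1, at 1.02, was not high.

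At the other end stood NDT80, THI2, DAL82, RTF1 and STB3, with list medians of -1.06, -0.95, -0.754, -0.754 and -0.66. In the strain lacking NDT80, RIM4 stood at -2.35, SPO11 at -1.67, DMC1 at -1.60, IME2 at -1.11 and ZIP1 at -0.93, each among the low members. HOP1 (0.54) and RED1 (0.10) were not low. In all 5 of 9 were low, where 15.3% of all genes were. NDT80 was itself at -1.28, against a median of -0.14. The list median stayed lowest of all columns with column centring, quantile normalization and chromosome shifts removed. In that column chromosome III was shifted by -0.51 and chromosome XV by 0.62, and no member lies on either.

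Other early genes were low in the NDT80 column as well, 10 of 17, against 15.3% of all genes, with a median centred score of -1.27. REC8, the meiotic cohesin gene, had a centred score of -2.80, MEI5, a partner of Dmc1, of -2.02 and HOP2 of -1.77. Of 18 middle sporulation genes 9 were low, led by SPR3, a sporulation septin gene, at -2.58, and GAS2 was high at 1.97. Mating type genes moved in this column too, with 2 of 3 alpha-cell genes low (STE3 -1.70 and MF(ALPHA)1 -1.40 as centred scores), 2 of 6 a-cell genes high (STE2 1.94 and BAR1 1.04) and 1 low. Their part in the members' values was not tested. All these levels rest on 1 column. Scores cannot tell dim spots from bright ones, here or in the low columns that follow.

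In the column labelled THI2, whose own gene was at 0.097 against -0.0044 and so does not show its loss, 4 members were low, DMC1 (-1.62), ZIP1 (-1.02), RED1 (-1.25) and REC104 (-1.09), against 9.51% of all genes. In DAL82, 4 were low, against 15.3%, and REC104 (-3.49) and SPO13 (-2.56) stood lowest there. The RTF1 column had IME2 at -1.85 and REC104 at -1.28, and in the STB3 column SPO11, at -0.99, was the low member and RED1, at 1.01, the high one. Single members were also far low in single columns. SPO13 stood at -6.56 in CAC2, where the list median was 0.36. REC104 stood at -3.13 in FZF1, and IME2 at -2.75 in the column labelled HAP2, whose own gene was at -0.16 against a median of -0.35.

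Strains lacking other known regulators of meiosis had list medians between those of the 5 highest and 5 lowest columns. Without IME1, the activator of these genes, scores ran from -1.19 for RIM4 to 0.63 for ZIP1, with IME2 at -0.73 and a list median of -0.33. Without RME1, a repressor of IME1, they ran from -0.77 to 0.51. Without RIM101, which acts upstream of IME1, SPO11 stood at 1.58 and RIM4 at 0.99, and the list ranked 38. These were the 2 members high there, against 7.56% of all genes. SPO11 and RIM4 lie near RIM101 on chromosome VIII, with 4 and 2 genes between. OPI1 and SNF6 lie there too. In the OPI1 column SPO11, with 1 gene between, stood at 1.30 (rank 7) and RIM4, with 3 between, at 0.46. In the SNF6 column RIM4, which is adjacent, stood at -0.57 and SPO11, with 2 genes between, at 0.28. What part closeness to the deleted gene has in these values was not tested. Without SUM1, a repressor of middle genes, ZIP1 was at 1.43, SPO13 at 1.39 and RED1 at 1.08, the 3 members that were high there, against 9.70% of all genes, and the list ranked 27.

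The strain lacking ISW2 had the lowest RIM4 of all, -2.41, and IME2 at -1.04, while the other 7 members lay between -0.73 and 0.37. All 3 alpha-cell genes were below -2 in that column. The strain lacking SOK2, a repressor of IME1, had HOP1 at 2.28 and SPO11 at 1.78. In the columns of HST1, XBP1, SIF2, ABF1, SNF1, YHP1, MDS3, WTM1, WTM2, SIR2 and SIR3 the list medians lay between -0.33 and 0.16. The highest single score was that of REC104 in SIR3, 1.80, and the lowest that of IME2 in HST1, -1.41. Low were 2 members in HST1 (6.66% of all genes), 2 in SIR2 (12.8%), and 1 each in XBP1 (2.14%) and SIR3 (8.31%). High was 1 member each in HST1, MDS3, WTM2 and SIR3, where 6.68% to 15.6% of all genes were. ABF1 itself stood at 0.80 in its column, against a median of -0.42, so that column does not show the loss of its gene.

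SWI/SNF moves nucleosomes, and in its 5 strains 2 members were lower. RED1 stood at -2.91 in SNF5, -1.93 in SNF2, -1.70 in SWI3, -1.43 in SNF6 and -0.55 in SNF11. SNF5 and SNF2 lay below the lowest of the other deletions, -1.91 in SIP3, and the other 3 strains lay within their range. The mean was -1.70 ± 0.85 (SD, n = 5) against -0.12 ± 0.58 (SD) in the other deletions, a difference of -1.58 ± 0.27 (SE; limma, adjusted p = 5.72e-07). With quantile normalization the difference was -0.88 (limma, adjusted p = 0.0247).

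DMC1 stood at -1.29 in SNF6, -1.12 in SNF5, -1.09 in SWI3, -0.51 in SNF11 and 0.63 in SNF2. SNF2 lay above the median of the other deletions, 0.30, and the other 4 below it. DMC1 differed by -0.98 ± 0.25 (limma, adjusted p = 0.000646), and by -0.65 (adjusted p = 0.149) with shifted columns left out. The other 7 members did not pass, with differences from -0.54 for RIM4 to 0.66 for SPO13. Over all genes 21.1% were called lower and 11.2% higher in these strains, so 2 of 9 lower and 0 higher is a share close to that of all genes. Of the a-cell genes 4 or 5 were below -2 in each strain but SNF11, and with such columns left out SNF11 alone remained, with differences of -0.41 for RED1 (limma, adjusted p = 0.846) and -0.78 for DMC1 (adjusted p = 0.558). What part these genes have in the RED1 and DMC1 values was not tested.

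**Figure D4:**
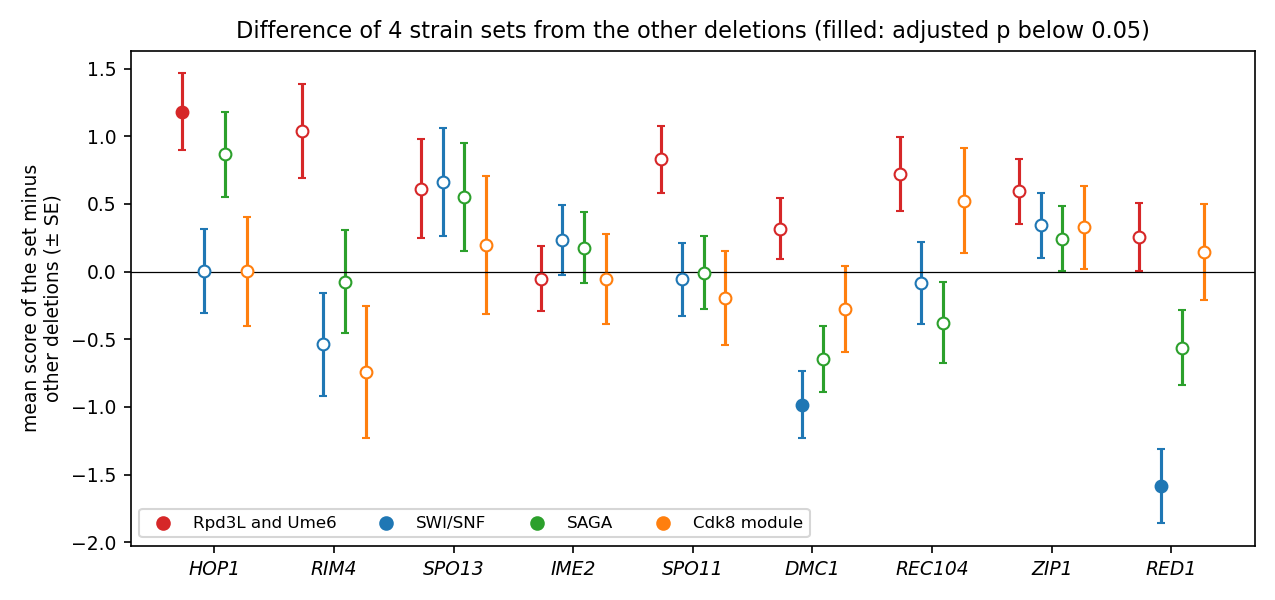
Difference in mean score between each of 4 strain sets and the other deletions (vertical axis, with SE as bars) for the 9 early meiosis genes (horizontal axis). Filled points passed the limma threshold, HOP1 in the Rpd3L and Ume6 set (1.18) and DMC1 (-0.98) and RED1 (-1.58) in SWI/SNF.

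In 5 strains lacking subunits of SAGA, a histone acetylating coactivator, no member passed in either direction, while 3.26% of all genes were called higher and 6.43% lower. HOP1 differed by 0.87 ± 0.31 (limma, adjusted p = 0.0544), with 2.56 in HFI1, 1.58 in SPT3, 0.98 in SPT20, 0.68 in NGG1 and 0.62 in ADA2, all above the median of the other deletions. DMC1 differed by -0.64 ± 0.25 (adjusted p = 0.0726) and RED1 by -0.56 ± 0.27 (adjusted p = 0.192). HOP1 passed with chromosome shifts removed (limma, adjusted p = 0.0415), without ADA2 (0.0271), without NGG1 (0.0330) and, in an alternative chosen after seeing the data, without the CST6 column (0.0471). DMC1 passed without ADA2 (limma, adjusted p = 0.0271) and without NGG1 (0.0316), and RED1 without NGG1 (0.0161). None of the members passed with column centring, quantile normalization, the Mann-Whitney test, or with SPT3, SPT20 or HFI1 left out. The same held with columns of low mating genes left out, and with shifted columns left out. Below -2 were 4 a-cell genes in HFI1 and in SPT20, 1 in ADA2, and 3 alpha-cell and 2 a-cell genes in SPT3. What part these genes have in the HOP1 values was not tested. The own genes of the columns labelled SPT3, SPT20 and NGG1 stood at 1.47, 0.31 and 1.04, which does not show their loss, and ADA2 at -0.43 lay at 25% of its values from the lowest. HFI1, at -1.20, was the one column of the set whose own gene lay in the lowest 20% of its values.

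The Cdk8 module of Mediator was represented by SSN3, also known as UME5 from screens for unscheduled meiotic expression, SRB8 and SSN2. No member passed, with differences from -0.74 for RIM4 to 0.52 for REC104, and at an unadjusted p below 0.05 there was also none (limma). Over all genes 0.0178% were called higher and 0% lower. SSN3 itself stood at 0.53 in its column, against a median of -0.21. All 4 sets were compared with the same other deletions.

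Over the columns the members moved together only in part. Every column used wild type RNA as its reference, so these correlations are a description. Over all columns the 36 pairs had Pearson r between -0.17 and 0.53, with a median of 0.161, and 34 were above 0. Without UME6 the median was 0.119. Over all pairs of genes tested, with missing centred scores set to 0, the median r was 0.010 both with and without UME6. HOP1 and RIM4 (0.46 without UME6) and RIM4 and SPO11 (0.44) were most alike. RED1 and DMC1 had an r of 0.34 with each other, and without UME6 RED1 was below 0 with SPO13 (-0.22), RIM4 (-0.14) and HOP1 (-0.095), and just below 0 with SPO11 and IME2.

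**Figure D5:**
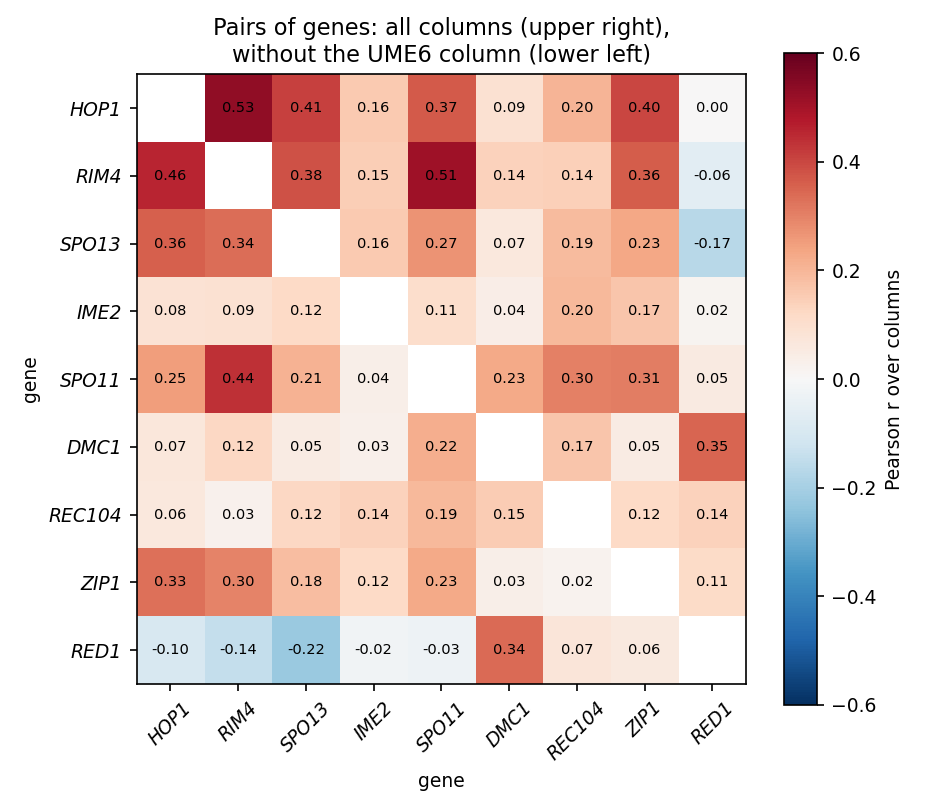
Pearson r over columns for each pair of the 9 genes, with all columns in the upper right and without the UME6 column in the lower left. The r of HOP1 and RIM4 is 0.53 with UME6 and 0.46 without it, and RED1 is near or below 0 with most genes other than DMC1.

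The genes outside the 9 whose scores were most like the mean of the members over all columns were SPO1, a meiotic phospholipase gene (r = 0.62), SRT1 (0.58), YOL131W (0.57), SNO1 (0.56) and MAL13 (0.55). In the UME6 column SPO1 stood at 4.11, SRT1 at 5.31, YOL131W at 6.96 and SNO1 at 4.34, but MAL13 at 0.13. Without that column the 5 most alike were MAL13 (0.63), BSC5 (0.62), FUR4 (0.58), SOA1 (0.572) and SPO1 (0.571). SPO1 and MAL13 were named both with and without UME6.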

How the data were processed

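The authors' deposited table holds 268 columns, 1 per deletion, and its values are used as a score, since no log base, scale or normalization is given in the sources used here. The planned test had assumed log-like values, and limma was kept because the scores are signed and spread around 0. Of 6419 features, 5655 had a name in the RefSeq gene table of assembly R64, used for names, chromosomes and gene order, and 5615 had a value in at least 80% of columns. A deleted gene's value was masked in its own column. Scores ranged from -8.35 to 8.05, 1.25% were missing, and column medians ran from -0.43 to 0.16. Direction follows the dyes in the labels. Of 35778 column pairs 36 correlated below -0.3, the lowest at -0.41, and swapped dyes in single columns were not tested.

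Strains were grouped by deleted gene into 4 sets (6, 5, 5 and 3 strains), chosen from textbook knowledge. Each was compared with 249 other deletions by limma 3.58.1 in R 4.3.3 (1 mean per set, eBayes, two-sided, Benjamini-Hochberg over 5615 genes, threshold 0.05). The fit was run on simulated normal scores with 1 spread per gene and the same shift in every strain of a set. It does not cover unequal spreads such as those of HOP1, with an SD of 2.17 in the set of 6 strains and 0.62 in the other deletions. Of the other deletions, 248 had a value for HOP1, 247 for RED1 and 246 for DMC1. Each strain of a set has its own genotype. The limma p-values rest on 1 spread per gene pooled over all columns, to which the other deletions contribute most. Members, sets and lists were chosen with earlier results of these data known. All 9 members were named, with columns drawn from each member's 3 highest and 3 lowest, the 5 highest and 5 lowest of the list and known regulators, the 5 genes most alike, and up to 4 genes of each other list in a comparison, by size. Alternatives were column centring, quantile normalization, other filters, chromosome shifts over 0.5 removed, columns left out, other spread estimates and a Mann-Whitney test. In 6 columns the values carry fewer digits. A chromosome was shifted in 15 columns, and 59 columns had at least 2 of 3 alpha-cell or 3 of 6 a-cell genes below -2. Own genes lay in the lowest 5% of their values in 159 of 263 columns. Precision is limited by how many arrays there are, and no intensities were used.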

Additional observations from a re-analysis of the deposited data

Results flagged for a closer look

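In 2 of 27 groups of values (9 members in the sets of 5 or 6 strains) 1 strain stood apart from the rest of its set, by its gap to the nearest strain relative to the range. Chance flags about 1 in 20 such groups. REC104 stood at 3.90 in UME6, while the other 5 strains of the Rpd3L and Ume6 set lay between -0.67 and 0.54. IME2 stood at 1.24 in the column labelled SPT20, while the other 4 SAGA strains lay between -0.41 and 0.043.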

How the results depend on the processing

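No paired analysis was possible because each deletion has 1 column and the labels give no replicate number. The count of members higher in the Rpd3L and Ume6 set, 1 of 9, was 0 with quantile normalization, with chromosome shifts removed, by the Mann-Whitney test and without columns with a shifted chromosome (an alternative chosen after seeing the data), 4 without columns with low mating markers and 2 without set columns whose own gene is not low. Leaving out 1 strain of the set at a time gave 0 (without SIN3 or UME6) to 4 (without SDS3). HOP1 there was weaker with quantile normalization (0.55, limma adjusted p = 0.851), with chromosome shifts removed (0.79, 0.215) and by the Mann-Whitney test (0.28), and turned to -0.13 without columns with a shifted chromosome, which leaves out UME6 and SIN3. Of all genes, 38 were called in this set, 4 with quantile normalization, 22 over genes with a value in every column (which include no member), 70 without low-marker columns, 67 without set columns whose own gene is not low, 0 by the Mann-Whitney test, 1 without shifted columns, and with 1 strain left out 11 (SIN3), 22 (UME6), 66 (RPD3) and up to 80 (PHO23). In the Cdk8 module 1 gene was called, 2 with column centring, with quantile normalization and without columns with other digits, 0 over genes with a value in every column and by the Mann-Whitney test, 5 without set columns whose own gene is not low, 3 without shifted columns, and 3 to 5 with 1 strain left out. In SWI/SNF 2 members were lower, 0 without low-marker columns, which leaves SNF11 alone, and 1 without shifted columns. Of all genes 1814 were called there, 504 with quantile normalization, 27 without low-marker columns, 1148 by the Mann-Whitney test and 843 without shifted columns. In SAGA no member passed, while 1 was higher with chromosome shifts removed, without set columns whose own gene is not low and without the CST6 column (the last chosen after seeing the data), and 1 was lower without set columns whose own gene is not low. The alternative without set columns whose own gene is not low leaves HFI1 alone of the SAGA strains, so its calls are those of 1 column. With 1 SAGA strain left out, 0 to 1 were higher and 0 to 2 lower. Of all genes 544 were called in SAGA, 50 with quantile normalization, 1 without low-marker columns, 10 by the Mann-Whitney test, 41 without shifted columns, and with 1 strain left out 33 (SPT20), 62 (HFI1), 329 (SPT3) and up to 894 (ADA2). The median of the members in the UME6 column, 3.14, was 1.60 with quantile normalization, 2.70 with chromosome shifts removed and, chosen after seeing the data, 2.72 without HOP1. Where an alternative leaves out strains, fewer samples enter the test, and otherwise the cause was not tested. A lone strain left in a set is assumed to vary like the others. Scores carry no signal over background, so dim spots cannot be told from bright ones.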
